A study of Mus musculus with 12 samples.

Results

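The transcriptome described here is that of the wild-type fetal mouse ovary at E16.5 (the embryonic day), as sequenced from total input RNA in 3 libraries out of the 12 of the series. The libraries were chosen by their labels alone, as wild-type input, and only their column of gene counts was used. Each library came from 5 pairs of whole ovaries homogenised together in detergent buffer and centrifuged, and 10% of the homogenate was kept for input RNA, with no antibody step. The remaining libraries, 3 of Fmr1 knockout input and 3 of anti-FMRP immunoprecipitated RNA from each genotype, were not used, and no genotypes were compared. All samples carry the strain label B6.129P2-Fmr1tm1Cgr/J, a line with a targeted allele of Fmr1, and the wild-type animals were littermates of the knockouts. Fmr1 itself, which encodes the RNA-binding protein FMRP, stood at 201, 214 and 217 CPM (the count scaled to 1e+06 counted reads of the library) in replicates 1, 2 and 3.

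At this age the female germ cells have left mitosis and stand in meiotic prophase, in which homologous chromosomes pair along the synaptonemal complex and exchange DNA. They lie in cysts among pregranulosa cells, the somatic support cells that will surround each oocyte in a follicle. Stroma, vessels with blood, surface epithelium and remnants of the mesonephros make up the rest of a whole ovary. In bulk RNA, fewer cells of a type and less RNA per cell cannot be told apart.

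The libraries held 25707718, 22829219 and 21450428 counted reads over 55416 annotated genes, so that 3 reads correspond to 0.117 to 0.140 CPM. Of these genes 18099 (32.7%) reached 1 CPM in all 3 libraries and are called detected below, while 8138 had no read. A ranking by CPM gives the share of reads a gene took, which grows with its length, and levels of different genes are compared by CPM per kb of exonic length; the median detected gene stood at 4.92 CPM per kb. Errors are the SD over the 3 libraries, which the labels call biological replicates and which do not say which litters entered each pool. Positions are those in the count files, which name Ensembl annotation 104; the submitters' processing notes name GRCm38. Symbols come from a RefSeq table (GRCm38.p6) that shares no identifier with the count files and whose coordinates differ. They were assigned by gene position relative to neighbouring genes, so each symbol is an inference, and 78.9% of detected genes received one; the rest keep their Ensembl identifier.

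The gene with the most reads was the ribosomal RNA-like gene Rn18s-rs5 (ENSMUSG00000119584, chromosome 17, 40157244 to 40159092), a single-exon gene that the table lists as a pseudogene. It stood at 80350, 86152 and 97462 CPM, or 8.80% ± 0.87 of all counted reads (SD, n = 3). Rn7sk (ENSMUSG00002076161, chromosome 9, 78082585 to 78082915), the small nuclear RNA that holds the elongation factor P-TEFb inactive, followed at 46250, 41365 and 31136 CPM. The order of the libraries was opposite for these genes: Rn18s-rs5 was highest in replicate 3 and Rn7sk in replicate 1, and their joint share was 12.8% ± 0.10 (SD, n = 3).

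Past this pair the ranking mixed genes of stroma, blood and mitochondria with noncoding RNAs and other genes. H19, an imprinted long noncoding RNA of fetal tissues, had 8543, 8300 and 8125 CPM. Col1a1, a chain of the main fibrillar collagen, had 9004, 6792 and 8027 CPM. The mitochondrial cytochrome c oxidase subunit COX1 had 7227, 6892 and 7372 CPM. H19 was the most even of these, with a coefficient of variation (CV) of 2.52% over libraries against 14.0% for Col1a1. Among the 25 genes with the highest CPM were 6 mitochondrial genes, 4 globins, 3 collagen chains (Col1a1, Col3a1 and Col1a2) and 11 single-exon genes. The leucyl-tRNA synthetase gene Lars2 at 6057 ± 461 CPM, the nuclear RNA Malat1 at 5819 ± 669 CPM, the growth factor-binding protein gene Igfbp5 at 2240 ± 63.6 CPM and beta-actin (Actb) at 1900 ± 60.3 CPM were among them as well (SD, n = 3). Whether all reads counted in Lars2 came from its own mRNA was not tested. The 10 highest genes took 17.9% ± 0.25 of the reads, the 100 highest 28.6% ± 0.46 and the 1000 highest 51.2% ± 0.47 (SD, n = 3), and 920 genes made up 50% of the reads.

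**Figure D1:**
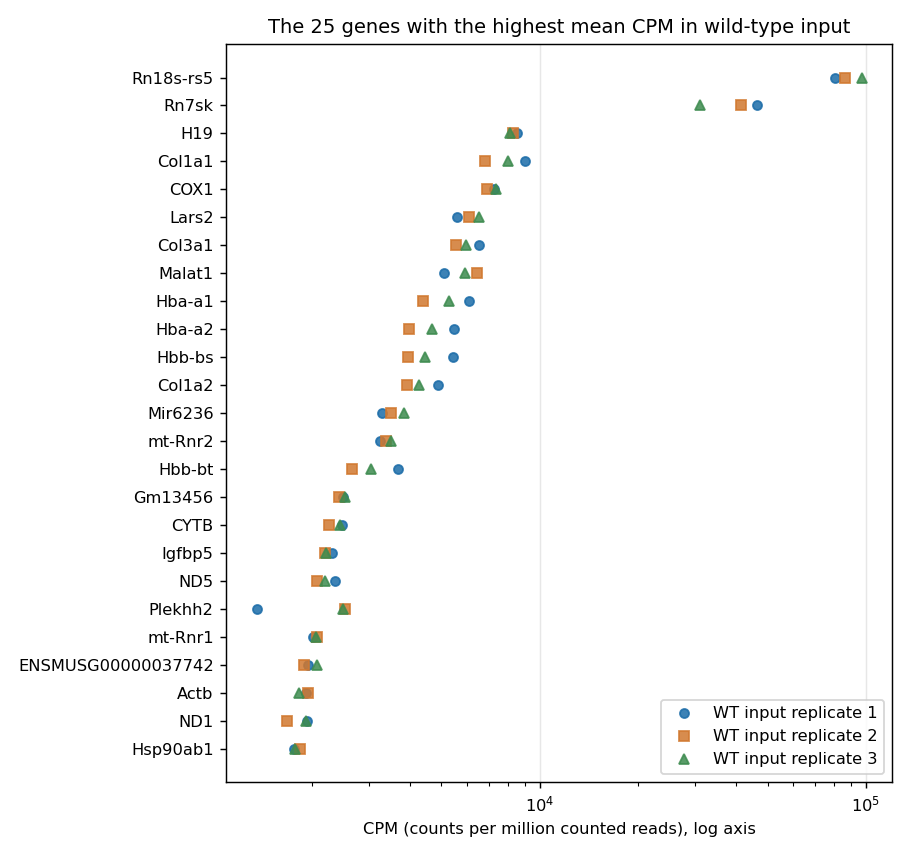
CPM of the 25 genes with the highest mean, on a log axis, with 1 symbol per wild-type input library. Rn18s-rs5 and Rn7sk stand apart, at 31136 CPM or more in every library, the globins and collagens lie lowest in replicate 2, and Plekhh2 lies lowest in replicate 1 (1357 CPM against 2541 and 2495).

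Per kb of exonic length, short genes led the ranking: 20 of the 25 highest genes were single-exon and 9 were under 500 bp. Rn7sk led at 119588 ± 23302 CPM per kb (SD, n = 3), ahead of Rn18s-rs5 at 47587 ± 4707. An unnamed gene of 57 bp on chromosome 16 (ENSMUSG00002076173, 10961989 to 10962045) had 759, 1962 and 2262 CPM, lowest in replicate 1, and the microRNA gene Mir6236 (ENSMUSG00000098973, 123 bp, chromosome 9) had 3280, 3507 and 3837 CPM. Apart from it, 7 of the 1132 named microRNA genes were detected, the highest at 15.4 CPM, so Mir6236 stood alone in its class. Its mature sequence in RefSeq (GRCm38.p6) is shown because it is the only microRNA gene among the most abundant, with the seed (bases 2 to 8) in capitals.
mmu-miR-6236: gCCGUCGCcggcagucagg
The counts are of reads over the whole annotated gene and do not measure the mature form. The CPM of Mir6236 rose from replicate 1 to replicate 3, as did that of Rn18s-rs5. Which RNA the reads over Mir6236 came from was not tested. The alpha globins Hba-a2 and Hba-a1, at 7064 ± 1136 and 6467 ± 1050 CPM per kb (SD, n = 3), were the highest genes with more than 1 exon block, and Hbb-bs stood at 6002 ± 981.

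Reads were spread unevenly over the chromosomes, and in chromosomes 17 and 9 single genes held a large part of them. Chromosome 17 took 12.3% ± 0.91 of the reads (SD, n = 3) and 71.4% of them lay in Rn18s-rs5. Chromosome 9 took 9.65% ± 0.71, of which Rn7sk made up 41.04%. Without these 2 genes, a set chosen after their levels were seen, chromosome 17 took 4.03% ± 0.092 and chromosome 9 took 6.52% ± 0.085, and chromosome 11 was the highest at 9.28% ± 0.26. Set against its share of the exonic length, chromosome 11, which carries Col1a1 and the alpha globins, held 1.63 times its length share of reads and chromosome 14 held 0.745 times, the limits over the autosomes. Chromosome 11 also had the highest share of its genes detected (44.1%) and chromosome 14 the lowest among autosomes (25.1%).

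The X chromosome lay within the autosomal range. It took 2.90% ± 0.024 of the reads (SD, n = 3), and its ratio to exonic length without the 2 top genes was 0.963. Its 736 detected genes had a median of 5.605 CPM per kb, between the lowest and highest autosome medians of 3.82 and 6.44, and the 17339 detected autosomal genes together had 4.89. Its most abundant gene was the ubiquitin ligase gene Huwe1 at 738 ± 26.3 CPM. Xist, the noncoding RNA that coats the inactive X, stood at 207, 184 and 159 CPM, and Tsix, its antisense partner, at 0.272, 0.219 and 0.0932 CPM. As the counting carried no option for strand, reads where these genes overlap cannot be assigned to either.

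The Y chromosome held 138 ± 2.71 CPM in all (SD, n = 3). Of this, 113 ± 4.82 CPM lay in 5 genes at its distal end, where X and Y carry near-identical copies and the assignment of reads is uncertain, and 25.5 ± 2.57 CPM in the other 1564 genes. Of 6 named Y-linked genes, 1 was detected, Uty at 2.22, 1.88 and 1.68 CPM, and the testis-determining gene Sry had at most 0.0466 CPM, below the level of 3 reads.

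The mitochondrial genome took 2.70% ± 0.099 of the reads (SD, n = 3). All 13 of its mRNAs were detected, with a median of 1509 CPM per kb, from COX1 at 4637 ± 159 down to ATP8 at 56.8 ± 7.31, a gene that shares exon bases with its neighbour. The ribosomal RNAs mt-Rnr1 and mt-Rnr2 stood at 2151 ± 26.3 and 2131 ± 77.6 CPM per kb. Of the 22 tRNA genes, 1 was detected, TrnP at 13.2 ± 0.54 CPM, and TrnD, TrnA, TrnI and TrnT had no read in any library. A row of 7 small genes on chromosome 1 (24650616 to 24655278), singled out after its levels were seen, took 6730 ± 276 CPM, with 4 of the genes at a mean of 1314 CPM or more. These reads lie outside the mitochondrial share above. Any likeness in sequence between these genes and the mitochondrial genome was not measured.

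**Figure D2:**
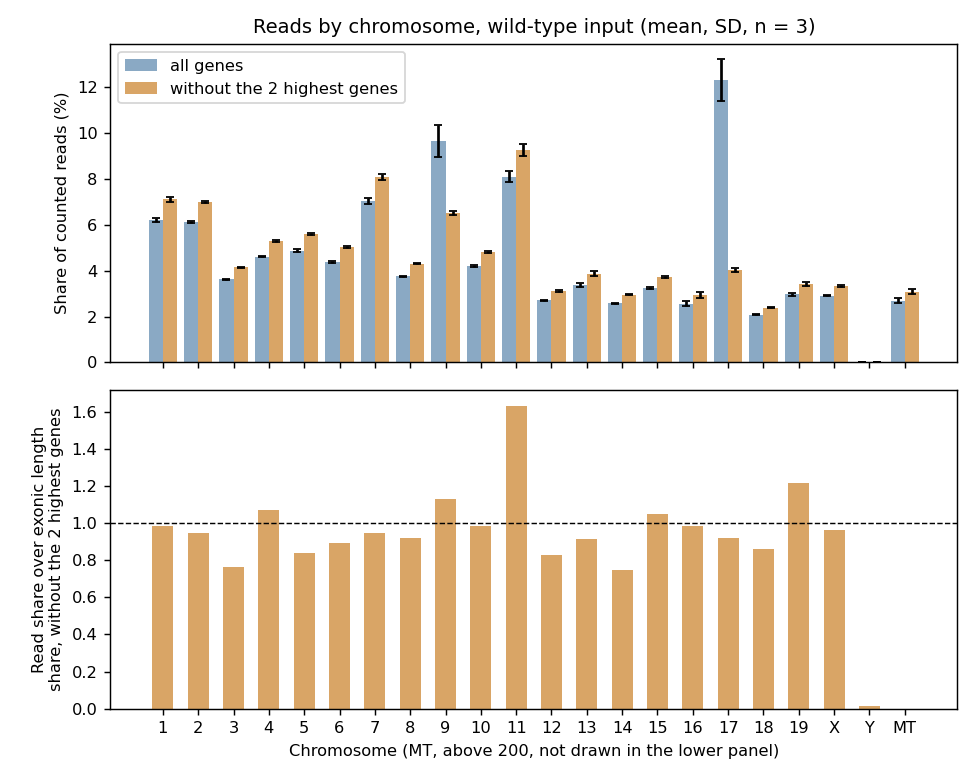
Share of counted reads by chromosome (upper panel, bars at the mean with the SD of 3 libraries), for all genes and without Rn18s-rs5 and Rn7sk, and the share of reads over the share of exonic length without these genes (lower panel). Chromosomes 17 and 9 fall from 12.3% and 9.65% to 4.03% and 6.52%, and chromosome 11 stands at 1.63 times its length share.

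Genes whose exons merge into a single block made up 40.5% of all genes and took 26.9% ± 0.30 of the reads (SD, n = 3). The submitters' notes name BWA, with no role, and how the aligner placed reads across splice junctions or with several matches is unknown. Per the file headers, counting was run with no option for multi-mapping or multiply overlapping reads. The part of alignment and counting in the shares and levels of single-exon and multi-exon genes was not tested. Single-exon genes were detected less often, at 14.4% against 45.04% of multi-exon genes. Detection at 1 CPM takes no account of length, and detected single-exon genes had a median length of 1084 bp against 4487 bp. Without Rn18s-rs5 and Rn7sk the single-exon share of the remaining reads was 16.2% ± 0.25. In RefSeq's classes, single-exon genes named as pseudogenes then held 5.53% ± 0.048 of all reads, with Rn18s-rs5 and Rn7sk kept in the total. Single-exon protein-coding genes held 3.68% ± 0.12, unnamed single-exon genes 3.26% ± 0.089 and single-exon long noncoding RNAs, led by Malat1, 0.7003% ± 0.066. The protein-coding class includes the 13 mitochondrial mRNAs, which summed to 21521 ± 1014 CPM. Among multi-exon genes the detected share was higher with more exon blocks, from 12.6% of genes with 2 blocks to 59.2% of those with 6 to 10 and 92.5% of those with 41 or more. The median length of detected genes also rose, from 2385 bp with 2 blocks to 12742.5 bp with 41 or more. The part of length in these detected shares was not tested. The median level per kb of detected genes differed less over the same classes, from 2.83 with 2 blocks to 5.99 with 21 to 40, while single-exon genes had 5.86 with the widest spread (quartiles of 1.58 and 24.5).

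Many pseudogenes, most of them single-exon, lay above the gene they are named for. By symbol, 407 pseudogenes could be paired with a detected parent gene, a set chosen after seeing the data. The pseudogene had the higher CPM per kb in all 3 libraries in 128 pairs (31.4%) and the lower in 270, and 91 of 183 parents lay below at least 1 of their pseudogenes. Tpt1-ps3 had 1434, 1530 and 1475 CPM (2851 ± 92.5 CPM per kb), and Tpt1, the gene of a translationally controlled tumour protein, 16.1, 18.8 and 20.1 CPM (7.72 ± 0.86 CPM per kb). Rps26-ps1 stood at 1461 ± 41.4 CPM per kb and the ribosomal protein gene Rps26 at 5.82 ± 1.06 (SD, n = 3), and the order was the opposite for Eef2, the translation elongation factor, with 463 ± 15.0 CPM per kb against 227 ± 10.7 for Eef2-ps2. Pseudogenes can share near-identical sequence with their parent, which was not measured here, so how reads were split within a pair is uncertain. Gapdh, a glycolytic enzyme, had 10.5, 9.11 and 7.51 CPM and lay below Gapdh-ps16 per kb (2.18 against 3.91), while the ferritin light chain gene Ftl1, at 3.62, 3.20 and 3.45 CPM, lay above Ftl1-ps2 (2.55 against 0.333 CPM per kb). Over 76 ribosomal protein genes, of which 72 were detected, the median was 5.28 CPM per kb, near that of all detected genes, and ran from Rpl3l at 0.327 to Rps27rt, a single-exon gene, at 2040. Housekeeping genes as a list (14 of 16 named, all 14 detected) had a median of 81.7 CPM per kb, from Gapdh at 2.18 to Actb at 709. What part the copies have in the levels of these genes was not tested.

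**Figure D3:**
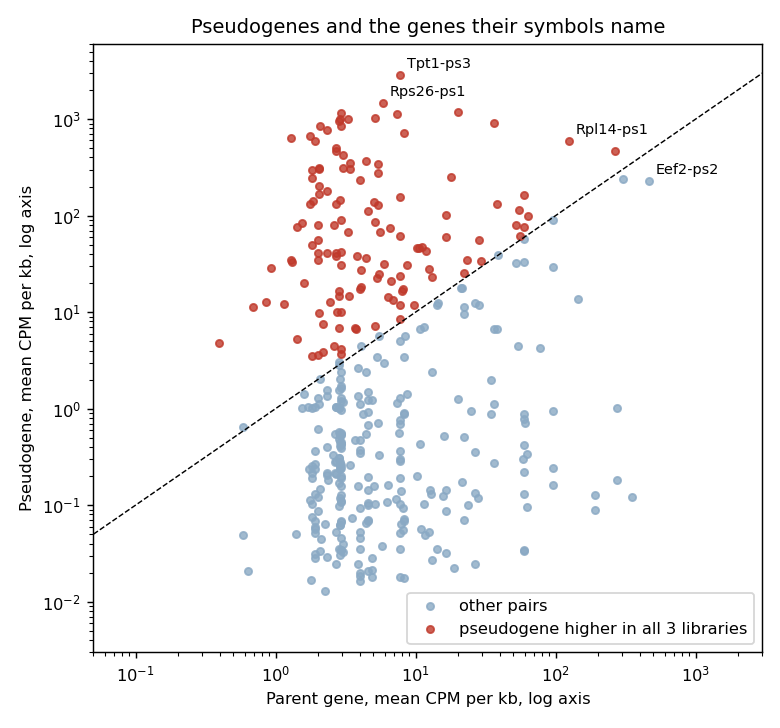
Mean CPM per kb of 384 pseudogenes with reads against the detected parent gene of the same symbol, both on log axes, with the line of equal level dashed. Red points are pseudogenes higher than the parent in all 3 libraries, with Tpt1-ps3 the highest at 2851 CPM per kb, and Eef2-ps2 lies below the line.

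Genes of germ cells and of meiotic prophase were present in all 3 libraries. Of 10 germ cell markers 9 were named and 6 detected, with a median of 3.16 CPM per kb. Mael, a piRNA pathway protein, led with 40.3, 54.4 and 57.9 CPM, ahead per kb of the translation regulator Dazl (59.0, 82.0 and 80.9 CPM) and the RNA helicase Ddx4 (34.4, 48.1 and 48.1 CPM). All 3 genes were lowest in replicate 1. Pou5f1 and Dppa3, markers of earlier germ cells, stood at 0.655 ± 0.33 and 0.229 ± 0.067 CPM and were not detected.

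Meiotic prophase genes were nearly all detected, 25 of the 26 named out of 29, with a median of 6.87 CPM per kb. The meiotic cohesin subunit Smc1b was the highest at 150, 185 and 184 CPM (42.8 ± 4.92 CPM per kb). The synaptonemal complex lateral element protein Sycp3 followed at 37.7 ± 4.96 CPM per kb, ahead of its transverse filament protein Sycp1 at 21.2 ± 3.61 and the cohesin Stag3 at 18.6 ± 2.48. Smc1b and Sycp3 lie within their spread of each other, as do Sycp1 and Stag3, while Sycp3 lay above Sycp1 in every library. Terb1 and Tex11, at 6.87 ± 0.71 and 6.87 ± 0.66, stood at the middle of the list. Stra8, the gene induced at meiotic entry, had 2.35 ± 0.22 CPM per kb, and the break formation gene Mei4 was the lowest at 0.292 ± 0.082, under 1 CPM in replicate 1.

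Genes of later oocytes were low. Of 12 oocyte factors and early products 5 were detected, with a median of 0.425 CPM per kb. Figla, a transcription factor of zona pellucida genes, had 2.57, 5.61 and 3.496 CPM. The zona proteins themselves, Zp1, Zp2 and Zp3, had at most 0.428 CPM in any library, and the growth factor Gdf9 had 1.21, 1.36 and 0.793 CPM.

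Pregranulosa markers were all detected (12 of the 12 named out of 13), with a median of 25.5 CPM per kb. Kitl, the ligand of the germ cell receptor Kit, led with 331, 356 and 347 CPM, or 58.3 ± 2.22 CPM per kb. The transcription factor Wt1 had 228, 248 and 228 CPM and the female signalling ligand Wnt4 105, 117 and 107. Lgr5, a receptor for R-spondins, was the lowest per kb at 4.79 ± 0.33. The libraries lay close together for these genes, with CVs of 3.81% for Kitl, 4.94% for Wt1 and 5.68% for Wnt4. Kit itself, the receptor, stood at 3.90 ± 0.23 CPM per kb.

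Of 8 Sertoli genes, which mark the male support cell, 7 were named and 6 detected. Their median was 2.43 CPM per kb, at Sox9 (9.41, 11.2 and 9.46 CPM). By library the median was 2.28, 2.71 and 2.29, near that of the germ cell markers at 2.22, 4.06 and 3.21. Amh, the hormone that removes the female ducts in males, had 1.17, 0.438 and 0.979 CPM, and Ptgds was the highest at 10.3 ± 2.47 CPM per kb. Among steroidogenic genes and hormone receptors 5 of 9 named were detected. The oestrogen receptor Esr1 stood at 157, 147 and 154 CPM, while the follicle-stimulating hormone receptor Fshr had at most 0.219 CPM and the steroid enzyme Cyp17a1 had 1.59, 0.482 and 1.40.

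Stromal genes had the highest median of the lists of cell type markers, 124 CPM per kb, with all 11 detected. Col1a1 was the highest at 1210 ± 169 CPM per kb and the transcription factor Tcf21 the lowest at 20.2 ± 2.41, and the proteoglycan Dcn, at the middle, had 715, 724 and 729 CPM. Surface epithelium markers (4 of 6 named, all detected) had a median of 25.9 CPM per kb (16.6 with symbols joined at 80% overlap), from the uroplakin Upk3b at 47.2 ± 1.35 to mesothelin (Msln) at 4.79 ± 1.27. Endothelial markers (8 of 10 named, all detected) had a median of 6.68, led by the junction cadherin Cdh5 at 22.1 ± 1.94, with the VEGF receptor Flt1 lowest at 1.78 ± 0.13. Pericyte and smooth muscle markers (6 of 7 named, all detected) had 3.45, from Pdgfrb at 28.5 ± 2.17 to Tagln at 1.90 ± 0.45.

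Markers of further cell types were measured as well. Macrophage markers (6 of 9 named, all detected) had a median of 7.34 CPM per kb. They ran from the complement gene C1qb at 14.6 ± 2.17 to the pan-leukocyte gene Ptprc at 0.511 ± 0.099. Mast cell markers (7 of 7 named, 5 detected) had a median of 2.75. Among them the chymase Cma1 stood at 28.8 ± 2.17 CPM per kb but the receptor chain Fcer1a at no more than 0.0438 CPM. Mesonephros and duct markers (5 of 6 named, all detected) had 2.36, from the kidney cadherin Cdh16 at 10.7 ± 1.59 to Gata3 at 1.02 ± 0.071. Schwann cell and neuron markers (5 of 6 named, all detected) had 0.790, with the neuronal RNA-binding protein gene Elavl4 lowest at 0.362 ± 0.11. Proliferation genes were all detected (14 of 14), with a median of 10.99 CPM per kb, the highest being Mki67 at 291, 252 and 337 CPM and the lowest Ccnb1 at 2.74 ± 0.42 CPM per kb.

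**Figure D4:**
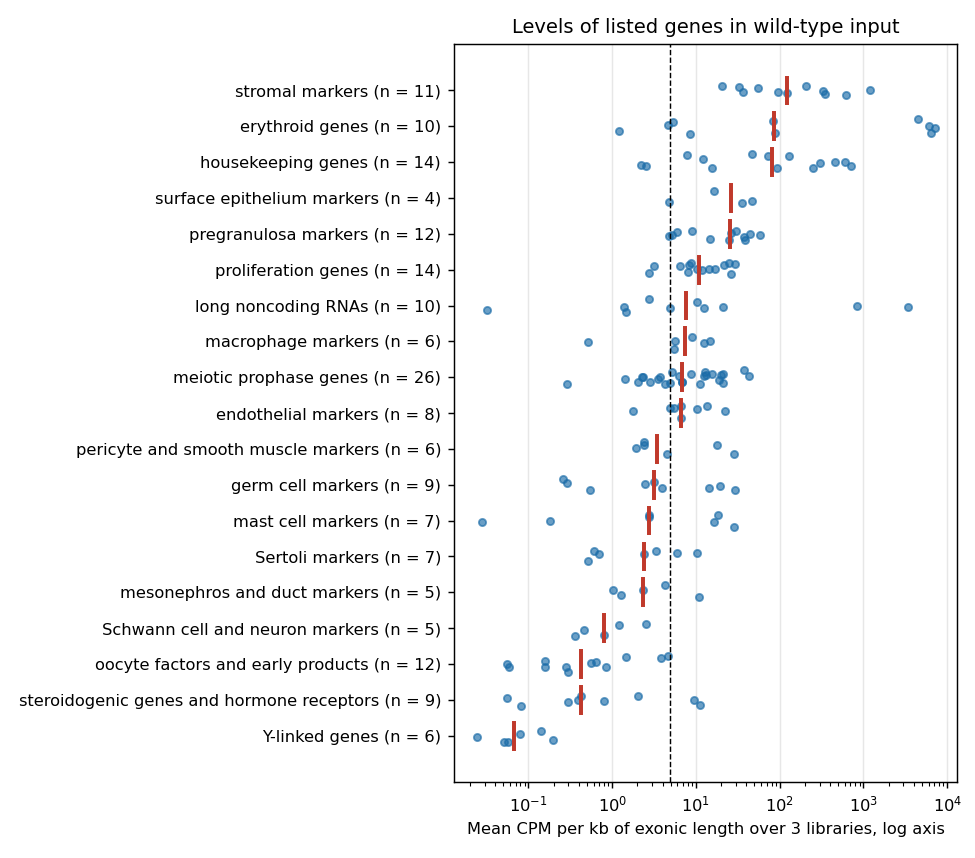
Mean CPM per kb of each named gene of 19 lists, on a log axis, with the list's median as a red bar and the median of all detected genes (4.92) dashed. Stromal, erythroid, housekeeping, surface epithelium and pregranulosa lists have medians above 25 (surface epithelium 16.6 with symbols joined at 80% overlap), and the oocyte, steroidogenic and Y-linked lists lie below 0.5.

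The adult globins Hba-a1 (6092, 4387 and 5276 CPM), Hba-a2, Hbb-bs and Hbb-bt stood far above the embryonic ones, with 4458 ± 741 CPM per kb or more: Hba-x had 8.51 ± 1.73 CPM per kb, Hbb-y 5.37 ± 0.78 and Hbb-bh1 1.20 ± 0.55 (SD, n = 3). The whole set of 7 summed to 20708, 14968 and 17480 CPM. The haem synthesis enzyme Alas2 had 241, 182 and 213 CPM and the red cell anion exchanger Slc4a1 428, 308 and 474 CPM. Replicate 2 was the lowest in each of these genes.

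Replicates were close over the whole transcriptome and differed by more than counting noise. Pearson's r of log2(CPM + 1) over detected genes was 0.991 to 0.992 and Spearman's rho 0.990 to 0.991, given as descriptions over genes, which are not independent. The chi-square per degree of freedom of the counts was 8.97 for replicates 1 and 2, 12.4 for 1 and 3, and 7.17 for 2 and 3, so no pair agreed within sampling noise. This does not show whether libraries came from separate pools. The median CV over libraries was 9.14% for genes at 10 to 30 CPM, against 4.90% from counting alone, and 4.29% at 100 to 1000 CPM, against 1.67%. The biological coefficient of variation, edgeR's common dispersion on a CV scale, was 10.98%, and DESeq2's median gene-wise dispersion, a different statistic, was 6.08% on that scale. Of 11249 genes at a mean of at least 10 CPM, 169 (1.5%) had a CV above 25%. Replicate 1 was over 1.5-fold below the mean of the others in 92 genes (0.818%) and above it in 4 (0.0356%), replicate 2 below in 52 (0.462%) and above in 15 (0.133%), and replicate 3 below in 13 (0.116%) and above in 59 (0.524%). Both thresholds, of 25% and of 1.5-fold, were set after the values were seen. The groups that follow are described by such counts, without a test, as each library is a single pool.

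The genes that set replicate 1 apart were led by histone H2A. Replication-dependent histones package newly made DNA and lie in clusters of single-exon genes. Many are near-identical copies, so that the split of reads among members of a family is uncertain, and the split of the list into families was made after its values were seen. Of the 10 genes with the highest CV, 8 were H2A genes. H2ac22 had 1.48, 13.4 and 22.7 CPM, H2ac10 had 3.07, 31.6 and 46.1, and H2ac11 had 3.89, 26.8 and 39.4. All 13 H2A genes at 10 CPM or more were lowest in replicate 1, against 33.5% of all genes at that level, and the median log2 difference from the mean of the others was -2.66. In sum the 17 H2A genes had 149, 484 and 671 CPM. Histone H3 had the same order at a smaller size, with 1037, 1596 and 1989 CPM in sum and all 9 such genes lowest in replicate 1 (median log2 difference of -0.86).

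Histones H2B, H4 and H1 did not share this order. H2B genes summed to 1914, 1776 and 1932 CPM, H4 genes to 2760, 2433 and 2600 and H1 genes to 559, 484 and 529, and the median log2 differences of replicate 1 were 0.06, 0.12 and 0.08. H4c12 was the highest histone gene per kb (573, 515 and 582 CPM, 1784 ± 116 CPM per kb). The family members H2ac18, H2ac19, H2bc18 and H3c13 had no read, and all of their exon bases are shared with another gene; none of the 1248 genes so placed had one.

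The contrast held between direct neighbours. H2ac11 (ENSMUSG00000069301, chromosome 13, 22226630 to 22227114) and H2bc11 (ENSMUSG00000069300, 22227384 to 22227846) lie head to head with 269 bp between them. H2bc11 had 106, 101 and 118 CPM, and per kb the level of H2ac11 was 3.49%, 25.3% and 32.0% of that of its neighbour in replicates 1, 2 and 3. In H2ac13 and H2bc13, 278 bp apart, the same ratio was 4.22%, 31.9% and 44.3%, and in H2ac7 and H2bc7 it was 4.20%, 27.6% and 40.8%. Among the 8 such pairs on opposite strands, the exception was H2ac1 and H2bc1, at 12.5%, 13.8% and 14.8%.

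Below are 150 bases before the start of both neighbours, shown because they occupy the same short region and the genes differ in replicate 1, and of 2 further H2A genes that were also lowest there. They are from RefSeq (GRCm38.p6, whose coordinates differ from those in the count files), on each gene's strand, as chr13:22042950-22043099 (minus), chr13:22043048-22043197 (plus), chr13:21787249-21787398 (minus) and chr13:23750938-23751087 (plus). Capitals mark TATAAA, searched on the gene's strand at bases -50 to -11 from the start, a window chosen after seeing the data.
H2ac11: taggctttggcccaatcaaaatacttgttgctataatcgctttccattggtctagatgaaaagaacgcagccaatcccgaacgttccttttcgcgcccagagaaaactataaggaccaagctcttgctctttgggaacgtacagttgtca
H2bc11: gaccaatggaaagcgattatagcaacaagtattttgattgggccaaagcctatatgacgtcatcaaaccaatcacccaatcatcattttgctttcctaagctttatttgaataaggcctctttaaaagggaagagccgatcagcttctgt
H2ac22: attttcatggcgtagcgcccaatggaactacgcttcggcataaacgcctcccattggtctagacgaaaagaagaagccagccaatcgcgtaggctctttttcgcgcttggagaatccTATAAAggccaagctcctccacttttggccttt
H2ac4: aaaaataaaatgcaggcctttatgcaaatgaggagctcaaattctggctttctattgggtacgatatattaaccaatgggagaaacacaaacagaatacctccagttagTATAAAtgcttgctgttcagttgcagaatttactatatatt
The motif was in 2.63% of the 27025 promoters of the table and in 3.56% of the 13838 protein-coding genes matched to it. Among named histone genes with an entry, 10 of 42 carried the motif (23.8%). It was in 10 of the 100 protein-coding genes with the highest CPM per kb, 1.30% of the 9873 detected and 9.18% of the 3965 undetected protein-coding genes, and in none of 53 ribosomal protein genes. H2ac22 and H2ac4 carry it and H2ac11 does not. All 13 H2A genes at 10 CPM or more were lowest in replicate 1, so these 3 cannot relate the motif to that order. Any such relation was not tested.

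Of the 92 genes low in replicate 1, 12 were H2A and 7 were H3, and the other 73 were not histones. Of these 73, 19 (26.03%) were single-exon, against 9.84% of the 11203 genes at that level outside the histones. Gprin1, a membrane protein of growing neurites, had 32.1, 112 and 192 CPM, and an unnamed gene on chromosome 2 (ENSMUSG00000086411, 167852449 to 167853426) had 208, 1117 and 1532. The 34 genes both low in replicate 1 and high in replicate 3 were 37.0% of the former and 57.6% of the latter, and 18 of them were not histones. Both counts use all 3 libraries, so they are not independent of each other. What sets this order was not tested.

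In replicate 2 the genes of red blood cells were among those that lay low. All 7 erythroid genes at 10 CPM or more were lowest there, against 28.6% of all genes at that level, with a median log2 difference of -0.36. Of the 52 genes over 1.5-fold low in replicate 2, 1 was on the erythroid list, which holds 7 of the 11249 genes at 10 CPM or more. All 13 mitochondrial mRNAs (median of -0.14), 11 of 14 proliferation genes (-0.24) and 6 of 11 stromal genes (-0.11) were also lowest in replicate 2. So were 12 of 13 H2B genes (-0.11) and 3 of 4 macrophage genes (-0.25). The part that the amount of blood in a pool had in these orders was not tested.

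Meiotic genes leaned low in replicate 1. Of 20 meiotic prophase genes at 10 CPM or more, 16 were lowest in replicate 1, against 33.5% of all genes, with a median log2 difference of -0.28, and 1 of them, Msh4, had a CV above 25%. Of 5 such germ cell genes 4 were lowest in replicate 1 as well (median of -0.47). The lean was not confined to germ cell genes: 8 of 12 pregranulosa genes (-0.08) and 3 of 4 Sertoli genes (-0.09) were lowest there. Stromal genes were so in 2 of 11 and proliferation genes in 2 of 14. Long noncoding RNAs were highest in replicate 1 in 7 of 9 genes, against 29.8% of all genes, and lowest in replicate 3 in 7 of 9, against 37.9%. Housekeeping genes showed no such lean in replicate 1, with 3 of 12 lowest there and a median of 0.01, while 7 of 12 were lowest in replicate 3 (median of -0.06).

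**Figure D5:**
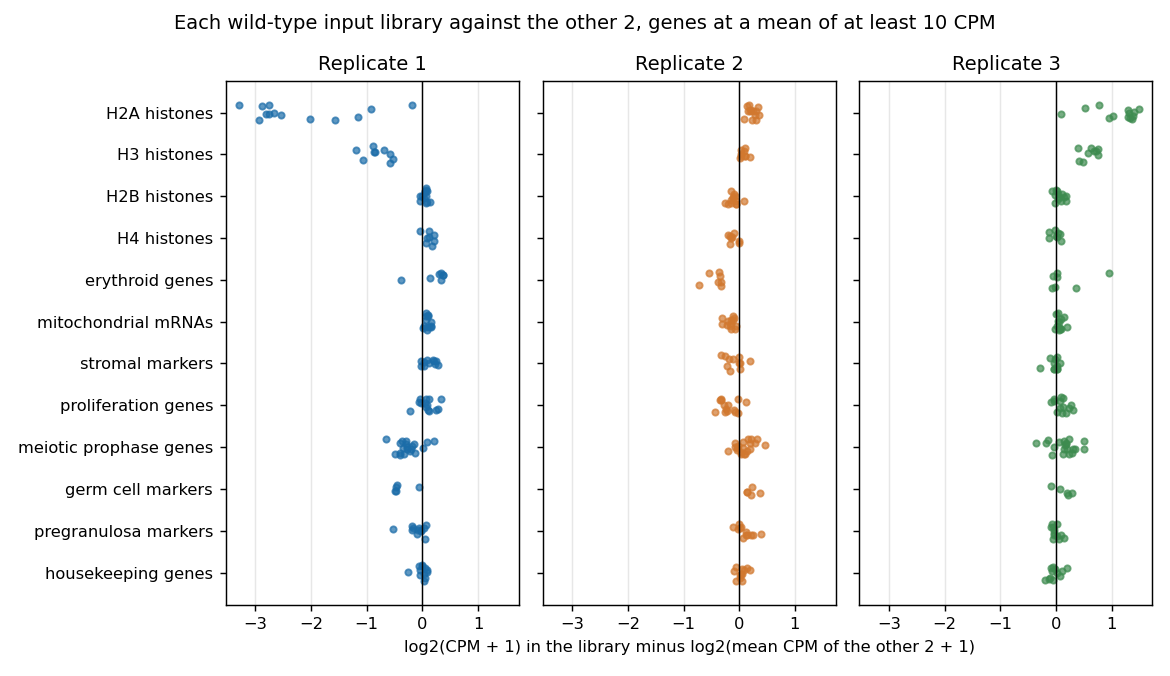
Difference of each wild-type input library from the mean of the other 2, in log2(CPM + 1), for genes at a mean of at least 10 CPM in 12 gene groups, with 1 point per gene. H2A and H3 genes lie below 0 in replicate 1 (medians of -2.66 and -0.86) and above it in replicate 3, and erythroid genes lie below 0 in replicate 2 (median of -0.36).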

How the data were processed

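The deposited read counts of 3 wild-type input libraries were used. Per the file headers, the authors counted reads over exons by gene with featureCounts 1.6.3 against Ensembl annotation 104, with no option for strand, read pairs, multi-mapping or multiply overlapping reads. The submitters' processing notes name BWA 0.7.12, FastQC, MACS2 2.1.0, DESeq2 1.26.0 and GRCm38 without roles. Of the series' other files nothing was used.

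CPM is the count divided by the library's counted reads, times 1e+06, with no further scaling, and CPM per kb divides it by the deposited exonic length. Single-exon genes have 1 merged exon block. Detected genes reached 1 CPM in all libraries, and CVs were taken at a mean of at least 10 CPM. Dispersion was estimated with edgeR 4.0.16 (TMM, no covariate; R 4.3.3), with DESeq2 1.42.0 as an alternative; other steps ran in Python 3.11.15. Scripts were tested on simulated data. No groups were compared.

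No table pairs the identifiers with symbols (0 of the RefSeq identifiers equal one in the files). Symbols were therefore joined by chromosome and by distance to 3048 anchor genes of equal span in both tables, requiring at least 2 other anchors within 2 Mb at the same distance. The gene also had to be the mutual closest match, with start or end within 200 bp and an overlap of at least 50%. These settings were chosen after several had been tried, with the number of named list genes and their levels in view, and the overlap was lowered from 80% because more genes were then named. The join named 30352 genes, which hold 88.6% of reads, and 181 of 205 list symbols; 16339 of 16362 named genes that the promoter file also holds lay on the same strand. At 80% overlap 26782 genes and 173 list symbols were named, and 1 of 26759 genes named by both had another symbol. A symbol may still be wrong, and a list gene without one has no value here.

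The lists, thresholds and named groups were chosen with earlier results of these data known. Genes named by rule were the 25 highest by CPM and by CPM per kb, the highest gene of each chromosome, the highest, median and lowest member of each list, Xist and the 10 highest CVs. Not all of these are printed, and further list members, pairs and sub-lists were picked after their values were seen. For genes at 0, 3 reads are the limit, and this covers counting error only.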

Additional observations from a re-analysis of the deposited data

How the results depend on the processing

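No paired analysis was possible because 1 group was described and no groups were compared. Without the highest gene, or without the 2 highest (the latter chosen after seeing the data), the share of reads was 3.86% or 4.03% for chromosome 17, 10.6% or 6.52% for chromosome 9, 8.87% or 9.28% for chromosome 11, 3.18% or 3.33% for the X, 2.96% or 3.09% for the mitochondrial genome and 19.9% or 16.2% for single-exon genes. Without mitochondrial genes in the total, the X took 2.98%, single-exon genes 24.9% and the 100 highest genes 26.7%. Counting genes with 1 exon record as single-exon gave 25.6%, and asking for 1 read per library gave 35523 detected genes. The mean Pearson r was 0.989 with a pseudocount of 0.1, 0.994 with 10, 0.995 without a filter, and 0.991 to 0.992 with each library left out. DESeq2's median gene-wise dispersion was 6.08%. Leaving out each library gave 235 to 238 genes with a CV above 25% (169 with all), a dispersion of 10.1% to 11.7% and 18420 to 18522 detected genes. The median difference of H2A genes in replicate 1 was -1.61 with a pseudocount of 10, and that of globins in replicate 2 was -0.37 with TMM factors (-0.35 in the main scaling). With symbols joined at 80% overlap, the median of surface epithelium markers was 16.6 CPM per kb and that of housekeeping genes 71.5. With length limited to exon bases that no other gene covers, housekeeping genes had 105. Pericyte and smooth muscle markers then had 5.21 and ribosomal protein genes 5.57. With a minimum length of 500 bp, ribosomal protein genes had 4.79 and mitochondrial mRNAs 1750. Under that minimum, 16 of the 25 highest genes per kb were shared. The median log2 differences of H2A, H3 and meiotic prophase genes in replicate 1 kept their sign. Those of globins and erythroid genes in replicate 2 did so as well. Most other recomputed results are shares, counts or levels, which cannot change sign.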
